A study of Mus musculus with 4 samples.

Results

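Medium spiny projection neurons make up most of the striatum, the forebrain nucleus that receives the densest dopamine input. Dopamine acts on them through D1 and D2 receptors, which respectively raise and lower cyclic AMP, and the adenosine receptor Adora2a acts against D2 receptors in the neurons of the indirect pathway. Phosphodiesterases break the cyclic nucleotides down again, RGS proteins shorten the G-protein signal, and DARPP-32, a phosphoprotein controlled by protein kinase A, passes the balance on to protein phosphatase 1.

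The levels of 7 genes known for strong expression in these neurons, Adora2a, Gpr6, Rgs9, Pde10a, Pde1b, Ppp1r1b and Syndig1l, were examined for a dependence on ADAR2. ADAR2 is the A-to-I RNA editing enzyme encoded by Adarb1. The 7 genes were picked by symbol and correspond to 7 of the 33793 transcript clusters on the array, a transcript cluster being the group of probes that the design assigns to one locus. A total of 6 genes were found under their own symbol. Syndig1l is listed under its older symbol Tmem90a, and its RefSeq transcript accession matches.

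Whole-brain total RNA of adult female 129SV mice was hybridised to 4 Affymetrix whole-transcript gene arrays, 2 wild type and 2 Adar2-/-, 1 sample on each. Per the study's methods, both genotypes were siblings that carried the pre-edited Gria2 R/R allele, without which Adar2-/- mice die young, so the wild-type animals have this allele too. The knockout is present in all cells, and whole brain mixes striatum with all other regions. Fewer striatal neurons and less RNA per striatal neuron can therefore not be told apart. The methods speak of RNA from 2 wild-type and 2 Adar2-/- mice, and the labels only number the replicates, so the p-values measure the spread between these 4 arrays.

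Values are log2 signals, on which a difference of 1 is a 2-fold change. The array medians lay between 6.03 and 6.09. Adarb1 itself was measured at 10.50 and 10.45 in wild type and at 9.16 and 8.96 in the knockout (log2 fold change -1.42, SE 0.12, limma p 2.57e-05, adjusted p 0.409). The number of clusters with an adjusted limma p below 0.05 was 0 of 33793, or 0.0%. An unadjusted p below 0.05 was reached by 2009 clusters, or 5.95%, of which more were higher in the knockout (3.64% of all clusters) than lower (2.31%). In a test of each cluster alone with pooled variance, 15 passed the adjusted threshold. That test sets no lower limit on the spread. A cluster whose rounded values are equal within both genotypes passes it at any size of change. How many of the 15 are of this kind was not counted. The smallest two-sided p that an exact permutation test allows with 2 arrays in each group is 0.333.

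All 7 striatal genes were clearly measured in each array. Their log2 signals ranged from 7.77 to 10.95, above the range of 3.49 to 4.40 that 4 clusters for Y chromosome genes gave in these females. Signals of different clusters depend on their probes, so they were not read as relative RNA amounts. They served only to set a floor and to pick clusters at least as bright as the dimmest of the 7. None of the 7 clusters is marked in the file as able to cross-hybridize.

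None of the 7 genes passed the test. The count at an unadjusted limma p below 0.05 was 0 of 7, against 5.95% of all clusters, and their adjusted p-values ranged from 0.87 to 0.992. The log2 fold changes ran from -0.25 for Rgs9 to 0.02 for Syndig1l, with 5 of 7 below 0, against 47.7% of all clusters, and a median of -0.11. The median of all 33793 clusters was 0.005. That sign depends on signal, since the median was -0.04 over the 8847 clusters at least as bright as Syndig1l, the dimmest of the 7, of which 64.5% lay below 0. Median centring moves the fold change of each cluster by the same -0.04, which by construction puts all 7 genes below 0 and raises the share of all clusters below 0 to 58.8%. After quantile normalization 4 of 7 were below 0, against 50.8% of all clusters, and after cyclic loess 4 of 7, against 49.6%.

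**Figure D1:**
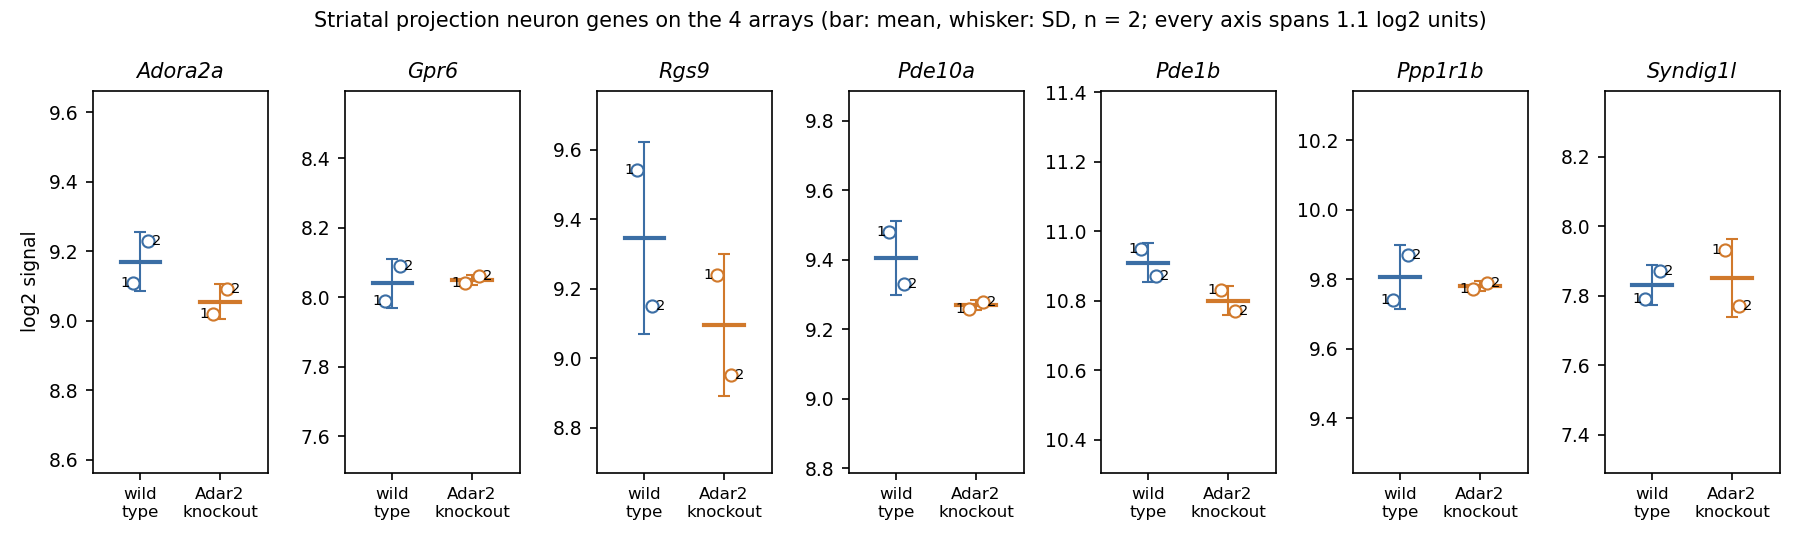
Log2 signal (vertical axes) of the 7 striatal genes in wild-type (blue) and Adar2 knockout (orange) brain, by array; numbers beside the points are replicate numbers, horizontal bars are means and whiskers SD (n = 2). Each axis spans the same distance. In Rgs9 the arrays of 1 genotype lie up to 0.39 apart, while in the other genes all 4 arrays fall within 0.22.

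Known promoter elements were looked up for the 7 genes to show the sequence context of their starts. RefSeq promoter sequences of GRCm38.p6, from 250 bases before to 50 bases after each start, were at hand for Gpr6, Rgs9, Pde10a and Pde1b. The cyclic AMP response element TGACGTCA, the site bound by CREB in genes that respond to cyclic AMP, was searched on both strands and found in Gpr6, as in 1.79% of 32851 promoters of this length. TATAAA, the letters of the TATA box, was present at some place in the sequence of Rgs9 and of 1 promoter of Pde1b, as in 13.6% of all promoters. GGGCGG, the letters of the GC box, was present in Rgs9, Pde1b and Pde10a, as in 35.7%. The shorter form TGACG was found in Gpr6, where it is part of the full element, as in 20.8%, and the CCAAT box in Gpr6, Rgs9 and Pde10a, as in 37.4%. The stretches that hold the first element in Gpr6 (chr10:41072350-41072379, minus strand) and the second in Rgs9 (chr11:109298359-109298388, minus strand) are shown 5′ to 3′, with the element in capitals. The elements begin 78 bases and 195 bases before the start, respectively.
Gpr6: aacccagagccTGACGTCAccggaccccgc
Rgs9: ctcacttctgtaTATAAAgagattaacagg
These matches describe letters in the window only.

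The receptors were considered first. Adora2a encodes an adenosine receptor, the main Gs-coupled receptor of indirect-pathway neurons (cluster 17234339, chromosome 10, 75316943 to 75334788, plus strand, as the file gives it with no genome build named). In wild-type brain its log2 signal was 9.11 in replicate 1 and 9.23 in replicate 2. In the knockout it was 9.02 and 9.09, in the same order of replicates as for all genes that follow. The groups did not overlap, but knockout replicate 2 came close to wild-type replicate 1. The means were 9.17 ± 0.085 and 9.06 ± 0.05 (SD, n = 2), a log2 fold change of -0.12 (SE 0.11, 95% interval -0.38 to 0.15, limma p 0.332, adjusted p 0.906). It was -0.069 after cyclic loess and -0.076 after quantile normalization, and -0.175 without wild-type replicate 1 and -0.055 without wild-type replicate 2.

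Gpr6 encodes an orphan receptor with high constitutive Gs activity that is also typical of indirect-pathway neurons (cluster 17240401, chromosome 10, 41069989 to 41072285, minus strand). It was at 7.99 and 8.09 in wild type and at 8.04 and 8.06 in the knockout. The knockout arrays lay between the wild-type arrays. The log2 fold change of this gene, whose promoter holds the cyclic AMP element, was 0.01, the smallest of the 7 in size (SE 0.11, 95% interval -0.25 to 0.27, limma p 0.927, adjusted p 0.992). A fall of more than 1.19-fold or a rise of more than 1.21-fold is outside that interval.

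Rgs9 encodes a GTPase-activating protein of the RGS family whose long form is abundant in striatum and limits signalling through D2 and opioid receptors (cluster 17271209, chromosome 11, 109225355 to 109298181, minus strand). It was the most variable of the 7, with 9.54 and 9.15 in wild type and 9.24 and 8.95 in the knockout. Knockout replicate 1 lay above wild-type replicate 2, so the genotypes overlapped. The log2 fold change of -0.25 (SE 0.18, 95% interval -0.68 to 0.18, limma p 0.204, adjusted p 0.87) was smaller than the gap of 0.39 between the wild-type arrays and the gap of 0.29 between the knockout arrays. It was decided by single arrays, with values of -0.055 and -0.445 when wild-type replicate 1 or 2 was left out and of -0.395 and -0.105 when knockout replicate 1 or 2 was, and its unadjusted p was 0.0987 or more in these fits.

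The phosphodiesterases followed. Pde10a hydrolyses both cyclic AMP and cyclic GMP and is concentrated in medium spiny neurons (cluster 17333133, chromosome 17, 8525372 to 8986648, plus strand). Its signals of 9.26 and 9.28 in the knockout lay below those of 9.48 and 9.33 in wild type. The log2 fold change was -0.14 (SE 0.11, 95% interval -0.41 to 0.14, limma p 0.268, adjusted p 0.89), close to the gap of 0.15 between the wild-type arrays. When wild-type replicate 1 or 2 was left out it was -0.06 or -0.21, and after cyclic loess it was -0.088.

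Pde1b encodes a calmodulin-dependent phosphodiesterase (cluster 17315606, chromosome 15, 103503034 to 103530052, plus strand). It was at 10.95 and 10.87 in wild type and at 10.83 and 10.77 in the knockout, again without overlap. Pde1b was the only gene of the 7 in which the difference between genotypes, -0.11 (SE 0.11, 95% interval -0.37 to 0.15, limma p 0.336, adjusted p 0.907), exceeded the gaps between arrays of the same genotype, 0.08 and 0.06. This difference corresponds to a 7.34% lower level and did not pass the test. How many of all clusters exceed both of their gaps was not counted, so the gene is not singled out by this. Under other settings the difference ran from -0.06 after cyclic loess, with -0.068 after quantile normalization and -0.07 without wild-type replicate 1, to -0.15 after median centring and without wild-type replicate 2.

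Ppp1r1b encodes DARPP-32 itself (cluster 17255949, chromosome 11, 98348404 to 98357796, plus strand). Its log2 signal was 9.74 and 9.87 in wild type and 9.77 and 9.79 in the knockout. Both knockout values fell between the wild-type values. The log2 fold change was -0.025 (SE 0.11, 95% interval -0.29 to 0.24, limma p 0.825, adjusted p 0.983), so that a fall of more than 1.22-fold is outside the interval.

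Syndig1l encodes a membrane protein related to the AMPA receptor-associated protein SynDIG1 (cluster 17282557, chromosome 12, 84677278 to 84698807, minus strand). It was at 7.79 and 7.87 in wild type and at 7.93 and 7.77 in the knockout. The knockout arrays enclosed the wild-type arrays, and the log2 fold change was 0.02 (SE 0.11, 95% interval -0.26 to 0.30, limma p 0.866, adjusted p 0.987).

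**Figure D2:**
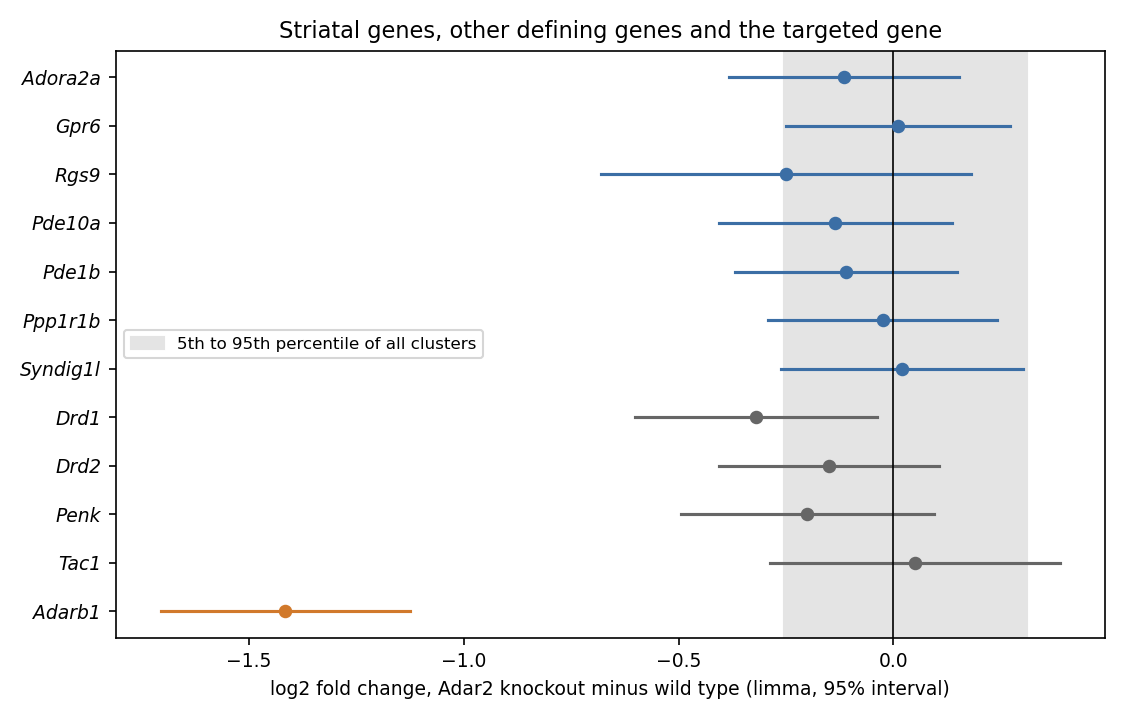
Log2 fold change of knockout over wild type (horizontal axis) with its 95% interval from limma for the 7 striatal genes (blue), 4 other defining striatal genes (grey) and Adarb1 (orange); the shaded band holds the fold changes of all clusters between their 5th percentile of -0.26 and 95th percentile of 0.31. The intervals of all 7 striatal genes include 0.

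Across arrays the 7 genes did not follow a common order. The groups did not overlap in 3 of 7 genes, against 34.1% of all clusters. All 3 were lower in the knockout, as were 16.5% of all clusters and 25.9% of those at least as bright as Syndig1l, and 0 were higher, against 17.7%. The highest array was a wild-type array in 6 of 7 genes, in 3 of them replicate 1 and in 3 replicate 2. The lowest was a knockout array in 5 genes and wild-type replicate 1 in Gpr6 and Ppp1r1b. Shares over all clusters were not computed for the highest and lowest array, so these counts are not set apart from the background. Of the clusters at least as bright as Syndig1l, 64.5% had a fold change below 0. Between the wild-type arrays, replicate 1 was higher for 3 genes and replicate 2 for the other 4. The median gap within a genotype was 0.12 in wild type and 0.06 in the knockout, where all clusters had 0.13 in both. The SE was near 0.11 for 6 of the 7 genes and 0.18 for Rgs9, and the widest lower bound among the 7 intervals, that of Rgs9, stands for a 1.6-fold fall.

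The profile of the 7 genes over the 4 arrays was flat. Their mean deviation from each gene's own mean was 0.057 and 0.03 in wild type and -0.016 and -0.07 in the knockout, a range of 0.127. Among 23433 other clusters with 1 symbol and at least this range, those with the smallest root mean square difference from the profile over the 4 arrays were Gm505, Rusc1, BC017647, Snx22 and Unc45a, at 0.0052 to 0.0070. Their log2 fold changes lay between -0.095 and -0.08. With 4 arrays and so small a range this likeness is a description only.

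To set the 7 genes in their pathway, 6 lists of striatal genes were compared, which together hold 60 further genes in 62 clusters. The 62 clusters had a median log2 fold change of -0.11, and 44 (71.0%) were lower and 18 higher in the knockout. Of all clusters 47.7% were lower, and of those at least as bright as Syndig1l 64.5%, so that the counts of lower genes in the lists below stand against these shares. Of these, 4 had an unadjusted limma p below 0.05, which is 6.45% against 5.95% of all clusters. All 4 were lower, where 2.31% of all clusters were called in that direction, and 2.15% of those at least as bright as Syndig1l. The lowest adjusted p was 0.834.

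Among receptors and G-protein signalling genes, 1 of 14 clusters (7.14%, against 5.95% of all clusters) had an unadjusted p below 0.05, with 9 lower and 5 higher and a median of -0.11. That gene was Drd1, the D1 dopamine receptor that defines direct-pathway neurons. Its log2 signal was 8.29 and 8.15 in wild type and 7.84 and 7.96 in the knockout, without overlap. The difference on the log2 scale was -0.32 with an SE of 0.11 (limma p 0.0325, adjusted p 0.834). The unadjusted limma p was 0.0534 after quantile normalization and 0.0639 with the replicate number as a block, and the pooled-variance test gave 0.0739. With single arrays left out the difference ran from -0.39 to -0.25. Drd2, the D2 receptor of indirect-pathway neurons, was at 10.06 and 10.13 against 9.93 and 9.96, a log2 fold change of -0.15 (limma p 0.198). Whether the 2 dopamine receptors differ in their change was not tested. Oprm1, the mu opioid receptor, had the highest value of this list, at 0.19 (limma p 0.231), which was 0.315 or 0.065 when knockout replicate 1 or 2 was left out and 0.305 or 0.075 when wild-type replicate 1 or 2 was.

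Direct- and indirect-pathway markers were counted apart. Over 9 direct-pathway clusters the median was -0.055, with 6 lower, and over 4 indirect-pathway clusters it was -0.18, with 3 lower. The direct-pathway median was -0.005 without wild-type replicate 1 and -0.13 without wild-type replicate 2. Tac1, the substance P precursor of direct-pathway neurons, was at 8.49 and 8.24 in wild type and 8.51 and 8.32 in the knockout, so the genotypes overlapped (log2 fold change 0.05, limma p 0.727). Penk, the enkephalin precursor of indirect-pathway neurons, was at 11.91 and 11.71 against 11.65 and 11.57 (log2 fold change -0.20, limma p 0.146), without overlap, and at -0.10 or -0.30 when wild-type replicate 1 or 2 was left out. The highest value was that of Ebf1 at 0.085 (limma p 0.497; 0.01 without wild-type replicate 1 and 0.16 without wild-type replicate 2) among direct-pathway genes and that of Gpr52 at 0.015 (limma p 0.901) among indirect-pathway genes. The difference between the pathways was not tested.

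The list of cyclic AMP signalling genes and partners of DARPP-32 includes subunits of protein kinase A, phosphatases, Cdk5 and further phosphodiesterases. In it 0 of 15 clusters had an unadjusted limma p below 0.05, against 5.95% of all clusters. The extremes were Arpp19, another cyclic AMP-regulated phosphoprotein, at -0.27 (limma p 0.0524) and Ppp3ca, the catalytic subunit of calcineurin, which dephosphorylates DARPP-32, at 0.035 (limma p 0.785). The median was -0.11. The unadjusted limma p of Arpp19 fell to 0.0287 with an intensity trend and 0.0354 among clusters above the median signal. It was 0.0372 after median centring and 0.0466 without clusters that can cross-hybridize. It stayed above 0.05 after cyclic loess (0.0836), after quantile normalization (0.0796), with the replicate number as a block (0.0639) and in a robust limma fit (0.0535). The pooled-variance test gave a p of 0.0635. With single arrays left out the log2 fold change of Arpp19 ran from -0.335 to -0.195.

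In the transcription factors of striatal neurons 2 of 13 clusters had an unadjusted p below 0.05, both lower, which is 15.4% of a short list against 2.31% of all clusters. Meis2 was at 9.95 and 9.73 in wild type and 9.58 and 9.44 in the knockout (log2 fold change -0.33, limma p 0.0416, adjusted p 0.834). Its unadjusted p was 0.0656 after cyclic loess, 0.0672 after quantile normalization and 0.127 with pooled variance. Sp9, which is needed for indirect-pathway neurons to form, was at 6.60 and 6.45 against 6.32 and 6.08 (log2 fold change -0.33, limma p 0.0487, adjusted p 0.834). Its unadjusted p was 0.0508 in limma with an intensity trend and 0.148 with pooled variance. Rxrg, a retinoid receptor, had the lowest value at -0.44, but its wild-type arrays stood 0.62 apart (limma p 0.0918), and it was -0.75 (limma p 0.0194) without wild-type replicate 2 and -0.13 (limma p 0.458) without wild-type replicate 1. Six3 was the highest at 0.11 (limma p 0.451). Meis2 and Sp9 are also expressed by olfactory bulb interneurons. A list of 7 olfactory bulb genes had mean log2 signals of 6.99 and 7.13 in wild type and of 7.13 and 6.44 in the knockout, with knockout replicate 2 the lowest and all 7 genes above the Y-linked range in each array. In this list 5 of 7 were lower, against 47.7% of all clusters, 1 with an unadjusted p below 0.05, against 2.31%. Without that array Meis2 was at -0.26 (limma p 0.186) and Sp9 at -0.205 (limma p 0.204). With other arrays left out the p stayed below 0.05 for Meis2 only without wild-type replicate 2 (0.0425) and for Sp9 only without knockout replicate 1 (0.0411). The part of olfactory bulb tissue in these values was not tested.

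Among other striatum-enriched genes 1 of 15 clusters had an unadjusted p below 0.05, which is 6.67% against 5.95% of all clusters. Actn2, an actin-binding protein of muscle and of dendritic spines, went from 7.90 and 7.84 to 7.59 and 7.38 (log2 fold change -0.39, limma p 0.019, adjusted p 0.834). With pooled variance Actn2 had a p of 0.0719. It did not pass without either wild-type array (p 0.103 and 0.0741) or without knockout replicate 2 (p 0.0766). Ido1 was the highest of the list at 0.17 (limma p 0.167), and Ankrd63 was not found in the table.

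**Figure D3:**
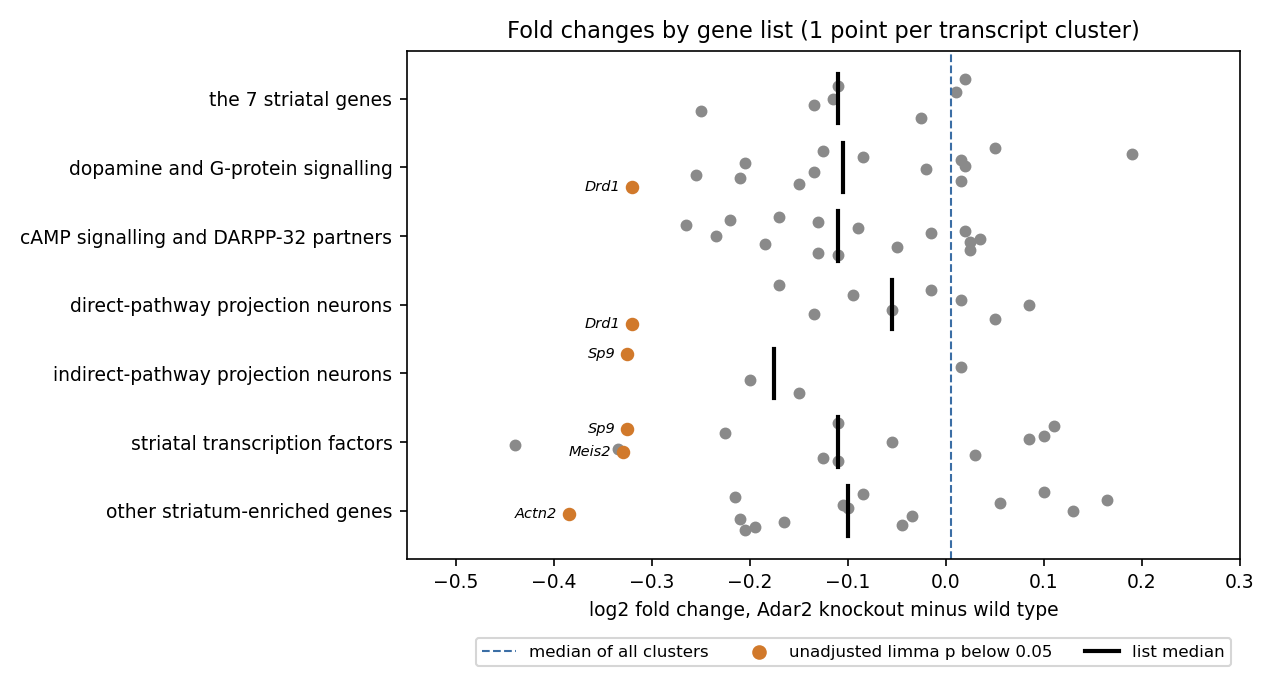
Log2 fold change of knockout over wild type (horizontal axis) for the 7 striatal genes and 6 lists of striatal genes, 1 point per transcript cluster; black bars are list medians, the dashed line is the median of all clusters (0.005), and orange points have an unadjusted limma p below 0.05. List medians lie between -0.18 and -0.055, and a gene that belongs to 2 lists, such as Drd1 or Sp9, is drawn in both.

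Markers of other brain cells were read on the same arrays. Shifts of this size were also seen outside the striatum. Cortical projection neuron genes had a median of -0.24, with 7 of 8 clusters lower, against 47.7% of all clusters and 64.5% of those at least as bright as Syndig1l. Of the 8, 2 were lower with an unadjusted limma p below 0.05, against 2.31% of all clusters. The mean log2 signals of the 8 clusters were 8.66 and 8.59 in wild type and 8.37 and 8.49 in the knockout. Astrocyte genes had a median of -0.12 with 5 of 7 lower, 1 of them with an unadjusted limma p below 0.05 (14.3%, against 2.31% of all clusters). Cerebellar genes were at -0.12 with 6 of 9 lower, and thalamic genes at -0.14 with 4 of 6 lower. Microglial genes were at -0.085 with 6 of 7 lower, oligodendrocyte genes at -0.04 with 7 of 8 lower, and hippocampal genes at -0.03 with 4 of 7 lower. In each of the last 2 lists 1 gene had an unadjusted p below 0.05 and was lower, as for 2.31% of all clusters. Genes of striatal cholinergic interneurons, the large local neurons of the same nucleus, had a median of 0.025, and those of the midbrain dopamine neurons that project to the striatum one of 0.003, with 0 clusters below an unadjusted limma p of 0.05 in either list. Choroid plexus and hypothalamic genes were at 0.02 and -0.005, with 1 hypothalamic gene higher at an unadjusted p below 0.05, as for 3.64% of all clusters. For the anterior pituitary all 9 clusters had values above 0, as did 17164 of all 33793, with a median of 0.17. Of the 9, 2 were higher with an unadjusted limma p below 0.05 (22.2%, against 3.64% of all clusters). Mean log2 signals of this list were 5.24 and 4.94 in wild type against 6.14 and 5.88 in the knockout. The hormone genes Prl and Gh had log2 fold changes of 4.12 and 3.17, while the other 7 clusters lay between 0.01 and 0.41, and 2 of the 9 had signals within or below the Y-linked range. The part of these other cells in the values of the 7 striatal genes was not tested.

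**Figure D4:**
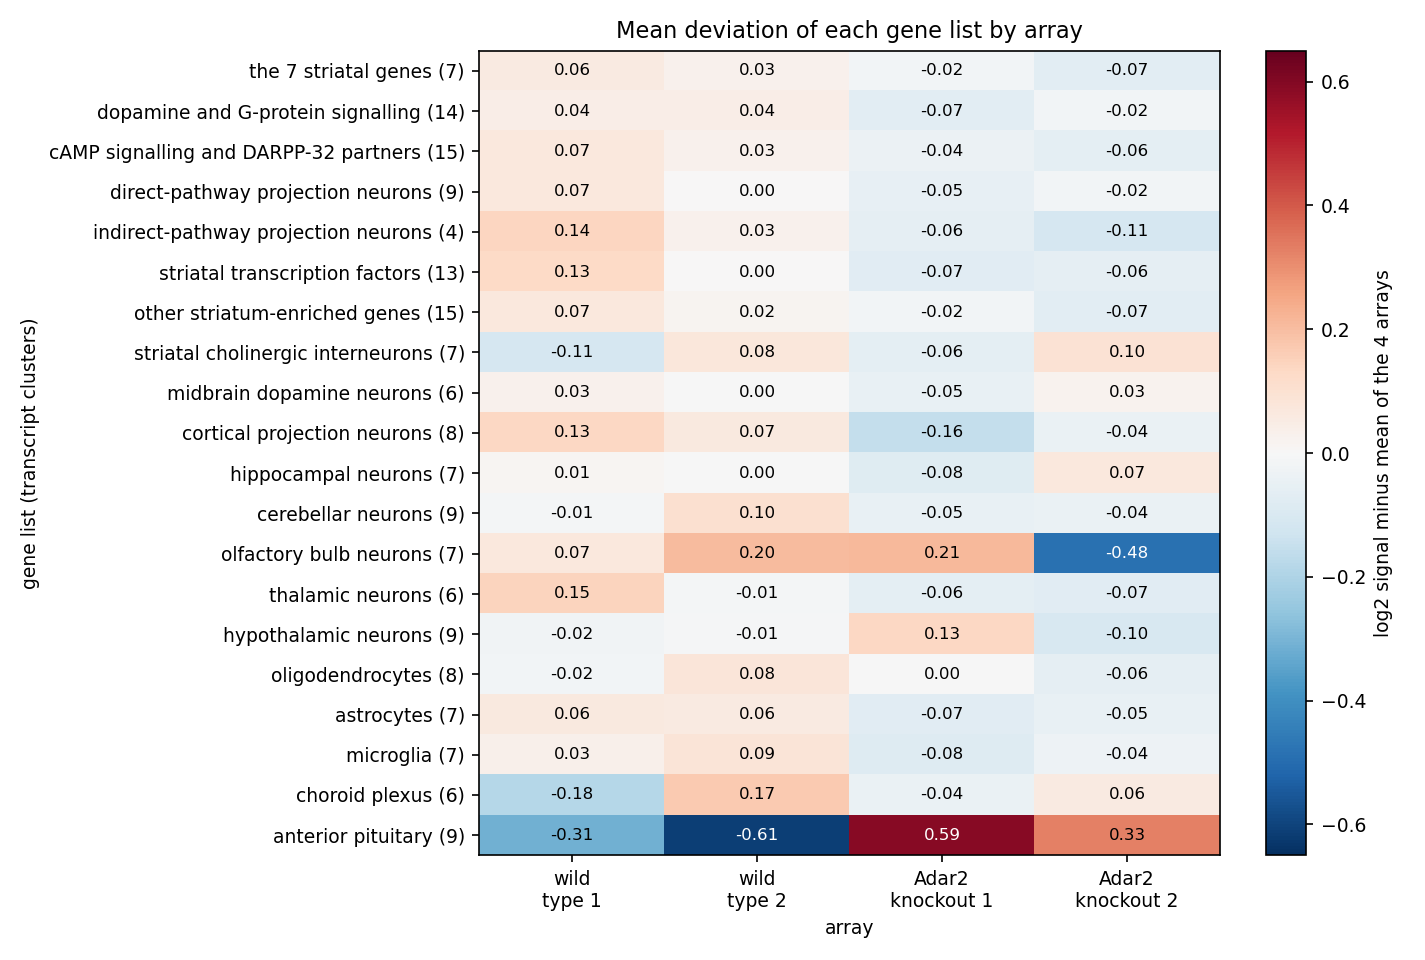
Mean deviation of each gene list (rows, with the number of transcript clusters) from its 4-array mean in log2 signal, by array (columns); red is higher and blue lower. The 7 striatal genes lie between -0.07 and 0.06 on all 4 arrays, while olfactory bulb genes reach -0.48 in knockout replicate 2 and pituitary genes run from -0.61 in wild-type replicate 2 to 0.59 in knockout replicate 1.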

How the data were processed

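The deposited table holds 1 normalized log2 signal per transcript cluster and array, to 2 decimals, for 33793 clusters on 4 arrays. The submitters' processing notes name Affymetrix Expression Console and RMA, a method that corrects background, normalizes between arrays and summarises probes. No versions or genome build are given in the sources used here. RMA compresses differences of dim probes, and the number of arrays limits the precision. The table's group averages, ratios, fold changes and p-values were the authors' own comparisons and were not used.

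Genotypes were compared in R 4.3.3 by moderated linear models (limma 3.58.1, lmFit then eBayes, with no covariate besides genotype, two-sided), with Benjamini-Hochberg adjustment over all 33793 clusters and no filter. The prior SD was 0.125 with 3.79 prior degrees of freedom. The fit was tested on simulated data. The 7 genes and all lists were chosen with earlier results of these data known, so no list was given a test. Lists were counted by cluster, and Prkaca and Arpp21 have 2 clusters each. Named genes were the 7, Adarb1, 4 defining striatal genes, and in each striatal list those with an unadjusted p below 0.05 and the highest and lowest fold change. A further defining gene is not reported here. The nearest profiles were the 5 with the smallest root mean square difference. Alternatives were other scalings, filters, variance models, the replicate number as a block and leaving out each array. The numbers were not taken as pairs, since they are not said to mark a shared litter or day. Deviations of same-numbered arrays had an r of 0.0516 across clusters, which cannot show whether the arrays are paired. Tables and plots were made with Python 3.11.15, pandas 2.3.3 and matplotlib 3.10.9.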

Additional observations from a re-analysis of the deposited data

How the results depend on the processing

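The count of the 7 genes with an unadjusted p below 0.05 was 0 in each alternative run, and with the replicate number as a block it was also 0, with a median of -0.11. Their median log2 fold change stayed below 0 in each alternative, from -0.15 after median centring to -0.055 without wild-type replicate 2, and was -0.11 without Syndig1l, an alternative chosen after seeing the data. Changes near 0 turned sign: Gpr6 was -0.03 and Syndig1l -0.02 after median centring, and Ppp1r1b was 0.024 after cyclic loess and 0.009 after quantile normalization. Median centring also turned Gpr52 to -0.025 and Ppp3ca to -0.005. With single arrays left out the values ranged from -0.04 to 0.06 for Gpr6, -0.09 to 0.04 for Ppp1r1b, -0.06 to 0.10 for Syndig1l, -0.07 to 0.10 for Gpr52, -0.08 to 0.15 for Ppp3ca, -0.005 to 0.225 for Six3 and -0.075 to 0.175 for Tac1. The median of the dopamine and G-protein list was -0.145 after median centring, -0.067 after quantile and -0.057 after cyclic loess normalization, and that of the indirect-pathway list -0.215 after median centring and -0.125 after cyclic loess. When arrays were left out in turn, list medians lay from -0.142 to -0.083 for the dopamine and G-protein list, -0.13 to -0.005 for the direct-pathway list and -0.18 to -0.07 for transcription factors. The count of clusters past an adjusted p of 0.05 was 15 in the pooled-variance test without shrinkage. There, clusters with equal rounded values within both genotypes pass at any size of change. The count at an unadjusted p below 0.05 was 989 among clusters above the median signal, where fewer clusters were tested, and 1221 to 1801 with single arrays left out, the lowest being without wild-type replicate 1. In fits that leave out an array, the lone array is assumed to vary like the other genotype. The cause of the other differences was not tested.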
